A study of Mus musculus with 4 samples.

Results

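A small set of intestinal T cells carrying messages of the immediate-early genes Nr4a1 and Egr1, here called Nr4a1 Egr T cells, was examined. A cell belonged to the set if its barcode had at least 300 genes, at most 10% mitochondrial UMIs, at least 1 UMI of Cd3e, Cd3d or Cd3g, at least 2 UMIs of Nr4a1, at least 1 UMI of Egr1, Egr2 or Nr4a3, and 0 UMIs of Cd79a and Siglech. A UMI (unique molecular identifier) stands for 1 counted message. In all, 165 of 57174 T cells, and of 68087 kept barcodes, met this rule. The genes of the rule chose the cells, so their levels are given as a description.

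CD45+ immune cells had been sorted from the small-intestinal crypts of mice and made into 5′ droplet libraries, with 18000 cells loaded per sample. Of the 4 samples, 2 came from animals fed a control diet and 2 from animals fed what the titles call cystine and the protocol a diet high in cysteine. The treatment field reads Control for all 4 samples and the genotype field reads Male, so the groups were taken from the titles. Strain, age, length of feeding and amount of cystine are not given in the sources used here. The labels do not say whether a sample is 1 mouse or a pool, so the spread among these 4 samples may be technical. For diet within 1 kind of cell the p-values reflect that spread. Where the set is compared with other T cells, each sample is its own block. Those p-values reflect how the difference within a sample varies, which may be technical too.

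Nr4a1, Nr4a2 and Nr4a3 encode orphan nuclear receptors, and Egr1, Egr2 and Egr3 encode zinc-finger transcription factors. Both families are transcribed soon after a T cell receptor is engaged and decline when the signal ends, so their messages are used as a mark of recent stimulation. Most T cells of the gut epithelium are γδ or CD8αα lymphocytes, resident cells that store granzymes and carry a partly activated profile at rest.

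The 4 libraries held 27229695 to 31301936 UMIs. Nr4a1 Egr T cells numbered 50 and 49 in control replicates 1 and 2 and 33 in each of cystine replicates 1 and 2. Their median depth was 2072.5, 2264, 1866 and 2403 UMIs in that order, against 1384, 1745, 1341 and 1525 UMIs for the other T cells. The set was deeper than the rest in every sample. Barcodes were scored by the doublet caller Scrublet, and those with the highest scores were marked as possible doublets. The share to mark was set beforehand at 0.8% for each 1000 barcodes of the library, so it is not a count of detected doublets. Marked were 2 of the 165 cells and 7231 of the 57174 T cells. Pairs of libraries shared 335 to 454 barcodes, and 0 of these marked a cell of the set in both libraries.

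Promoters of 4 genes are shown first, chosen because their windows hold matches to short DNA elements that transcription factors bind. Each is the 250 bases before the RefSeq start on GRCm38.p6, written in the direction of transcription. Nr4a1 lies at chr15:101266596-101266845 on the plus strand, Nr4a2 at chr2:57124004-57124253, Nfkbia at chr12:55492648-55492897 and Btg2 at chr1:134079156-134079405, the last 3 on the minus strand. Capitals mark matches, on either strand, to the motifs named next.
Nr4a1: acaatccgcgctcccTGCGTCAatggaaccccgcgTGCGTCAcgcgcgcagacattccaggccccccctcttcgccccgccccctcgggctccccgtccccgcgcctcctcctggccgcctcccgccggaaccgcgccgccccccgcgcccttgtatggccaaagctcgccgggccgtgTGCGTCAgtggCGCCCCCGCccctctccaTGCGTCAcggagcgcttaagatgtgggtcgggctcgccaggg
Nr4a2: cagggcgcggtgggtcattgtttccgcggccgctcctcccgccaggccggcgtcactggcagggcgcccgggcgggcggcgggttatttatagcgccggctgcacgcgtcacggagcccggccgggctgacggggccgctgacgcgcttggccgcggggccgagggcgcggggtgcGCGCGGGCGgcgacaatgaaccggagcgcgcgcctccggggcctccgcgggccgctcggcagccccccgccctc
Nfkbia: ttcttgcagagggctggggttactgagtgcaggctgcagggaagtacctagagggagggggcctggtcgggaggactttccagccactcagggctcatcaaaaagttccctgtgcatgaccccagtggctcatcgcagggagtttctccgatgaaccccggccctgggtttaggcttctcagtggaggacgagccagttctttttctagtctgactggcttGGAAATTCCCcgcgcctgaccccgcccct
Btg2: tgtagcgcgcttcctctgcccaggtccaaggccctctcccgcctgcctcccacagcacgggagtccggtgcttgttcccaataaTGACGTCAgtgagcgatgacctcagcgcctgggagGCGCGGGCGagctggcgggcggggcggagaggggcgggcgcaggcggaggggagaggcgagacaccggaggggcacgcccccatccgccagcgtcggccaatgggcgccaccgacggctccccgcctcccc
The motifs were the cyclic AMP response element (TGACGTCA), the AP-1 site (TGANTCA), the related element TGCGTCA, the EGR site (GCGNGGGCG), the NGFI-B site of NR4A receptors (AAAGGTCA), the CArG box of serum response factor and the κB site of NF-κB. TGCGTCA was added after the Nr4a1 window had been read. It occurs 4 times before Nr4a1, and 1 of the 27025 genes with a window, Nr4a1 itself, has that many. The Nr4a1 window also holds 1 EGR site, from 60 to 52 bases before the start. Nr4a2 has 1 EGR site, Nfkbia has 1 κB site, and Btg2, an antiproliferative gene, has 1 cyclic AMP response element and 1 EGR site. The windows of Nr4a3, Ccl3, Tnf, Junb and Xcl1 held 0 matches to these motifs.

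A window was at hand for 74 of the 102 genes that were higher in the set in the comparison described below. A κB site stood in 15 of the 74 (20.3%) and in 4.46% of all 27025 genes. The EGR site stood in 13 (17.6%, against 5.33%), the AP-1 site in 10 (13.5%, against 7.82%), the cyclic AMP response element in 6 (8.11%, against 1.77%) and TGCGTCA in 5 (6.76%, against 1.998%). The NGFI-B site stood in 2 (2.70%, against 1.55%) and the CArG box in 3 (4.05%, against 1.62%). Matches of different motifs overlapped in 7 of 32851 windows. Genes with a κB site include H2-Aa and Ifi30, and those with the NGFI-B site include H2-Eb1. Their calls were lost with cells holding antigen-presenting messages left out, as described below. The shares over all genes include genes that the comparison did not test. These shares were not tested, and a match is a run of letters, not evidence of binding.

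Nr4a1 stood at 1255, 1564, 1807 and 1422 CPM (UMIs per 1000000 UMIs of the summed cells) in control replicates 1 and 2 and cystine replicates 1 and 2. Other T cells of matched depth held 10.3 to 16.0 CPM. Egr1 stood at 681, 648, 903 and 814 CPM in the set. The minimum of 2 Nr4a1 UMIs was found in 75 cells, and 90 cells had more, up to 23.

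The companion messages were unevenly spread over the cells. Of Egr1, Egr2 and Nr4a3, 48 cells had Egr1 alone, 33 Nr4a3 alone and 9 Egr2 alone. Another 29 had Egr1 with Egr2, 25 Egr1 with Nr4a3, 8 Egr2 with Nr4a3, and 13 all of them. Most cells showed a single companion message.

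Each of the 2 conditions of the rule was also read in cells chosen by the other alone. In T cells with at least 2 Nr4a1 UMIs, whatever else they held, Egr1 was 405, 406, 481 and 481 CPM, against 13.1 to 22.1 CPM in T cells of matched depth (log2 fold change 4.68, SE 0.16, Benjamini-Hochberg adjusted p = 7.6e-13 by the quasi-likelihood test of edgeR). In T cells with a UMI of Egr1, Egr2 or Nr4a3, Nr4a1 was 179, 231, 244 and 184 CPM, against 9.37 to 11.4 CPM (log2 fold change 4.34, SE 0.11, edgeR adjusted p = 8.02e-21). In all 4 samples both values lay above those of the matched cells. Since Nr4a3 is part of the second condition, Nr4a1 was not read here in cells chosen by EGR genes alone.

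Just outside the rule lay 155 T cells with 1 Nr4a1 UMI and a UMI of Egr1, Egr2 or Nr4a3, and 95 with at least 2 Nr4a1 UMIs and none of those genes. The chemokine gene Ccl4, which the rule did not use, had a median over the samples of 6142 CPM in the 75 cells at the minimum and 11664 CPM in the 90 above it. It was 3624 CPM in the 155 cells and 1513 CPM in the 95. The medians of Nr4a2 had the same order, at 773, 1563, 670.4 and 366 CPM, although in control replicate 2 it was 764 CPM at the minimum and 933 CPM in the 155 cells. Other messages had other orders. Xcl1 was 730.0 CPM at the minimum and 1010 CPM in the 155 cells, Egr1 553 and 636 CPM, and Tnf was 360.2 CPM at the minimum and 266 CPM above it.

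To see what else these cells expressed, they were set against other T cells of the same sample and depth, up to 20 for each cell of the set and 3250 in all. The median depths were 2132 and 2120 UMIs. UMIs were summed per sample and kind of cell, and the sample was kept as a block. The low-count filter could be met by either kind of cell. A gene too scarce in the other T cells was therefore tested only if the set held more of it. In lists with scarce genes this partly fixes the counts and medians given below. Of 7206 genes tested, 119 were called (1.65%) at an edgeR adjusted p under 0.05, 102 of them higher in Nr4a1 Egr T cells (1.42%) and 17 lower (0.236%). The DESeq2 Wald test called 66 genes, all higher and all among the 119. Leaving out control replicate 2 gave 58 genes, and leaving out the first or the second cystine sample gave 73 or 71.

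The NR4A and EGR genes that the rule left out rose. Nr4a2, another NR4A receptor, was 1237, 1296, 1676 and 977 CPM against 95.1, 61.8, 39.7 and 40.4 CPM in matched T cells (log2 fold change 4.47, SE 0.15, edgeR adjusted p = 7.35e-29). Egr3 was 80.7, 81.9, 160 and 206 CPM against 3.30, 1.50, 1.47 and 0 CPM (log2 fold change 6.17, SE 0.52, edgeR adjusted p = 2.66e-13). For both genes the lowest sample of the set lay above the highest of the matched cells. Of all genes tested, 5.87% were higher in the set than in matched cells of the same sample in all 4 samples, and 12.5% lower. This is a looser condition than no overlap, whose share over all genes is not given here. Nr4a2 was detected in 76.4% of the set and 10.8% of matched cells, and in 0.336% of B cells (median depth 1172.5 UMIs) and 0.351% of plasmacytoid dendritic cells (2775 UMIs).

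Nab2, a corepressor that binds EGR proteins and limits their activity, was 89.6, 81.9, 160 and 109 CPM against 19.1 to 25.0 CPM (log2 fold change 2.25, SE 0.32, edgeR adjusted p = 1.36e-06). Fos, a subunit of the AP-1 factor, was 421, 209, 160 and 304 CPM against 3.30 to 7.49 CPM (log2 fold change 5.47, SE 0.30, edgeR adjusted p = 5.49e-20). The samples did not overlap for either gene. Of 6 measured AP-1 genes 3 rose: besides Fos these were Fosl2 and Junb, by 2.66 (SE 0.42) and 1.76 (SE 0.13) on the log2 scale. Without control replicate 2 Fosl2 was at 2.04 (edgeR adjusted p = 0.0533). Jun, Jund and Batf did not pass, and Jun was seen in 8.48% of the set and 7.42% of matched cells. Over the 6 genes the median log2 fold change was 1.42, against -0.05 over all genes tested. Fos, like Egr3, was scarce in matched cells and entered the test through the set, which bears on this median.

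**Figure D1:**
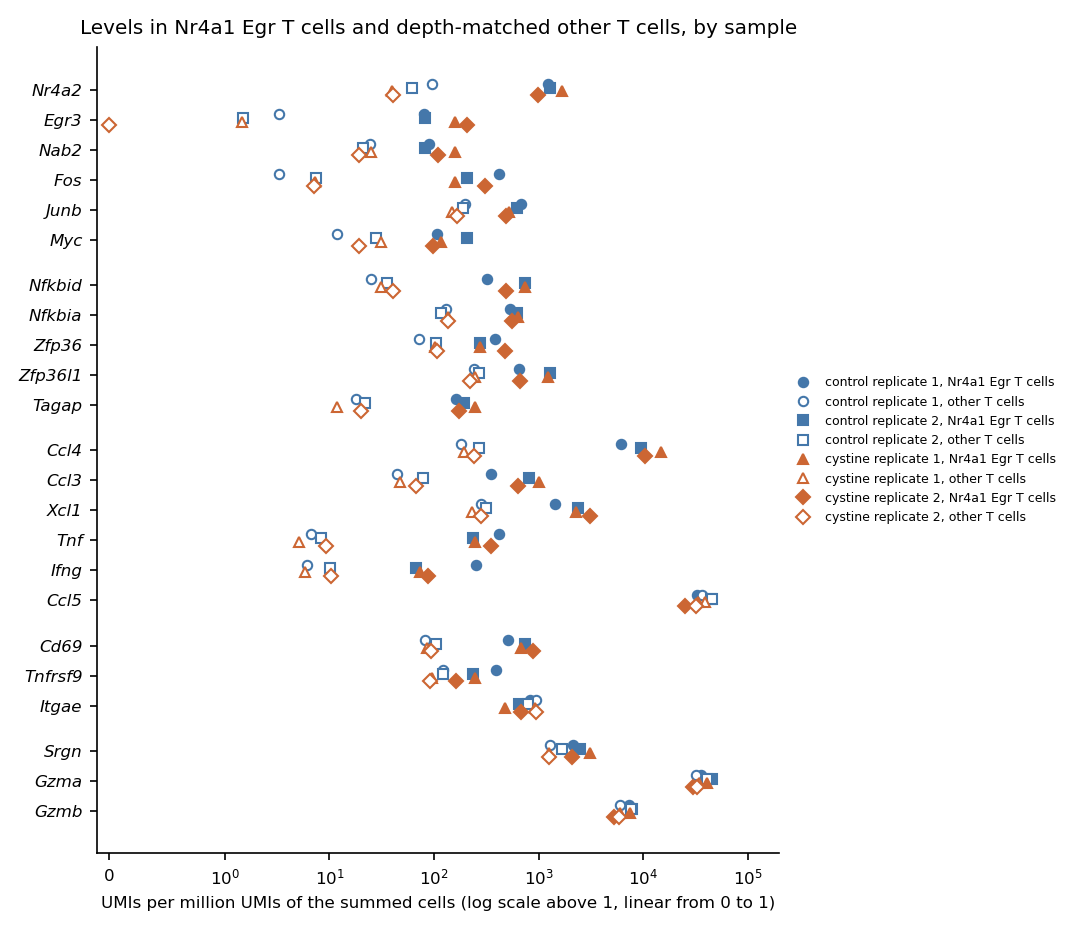
Level of each gene (x axis, CPM, log scale above 1) in Nr4a1 Egr T cells (filled) and in depth-matched other T cells (open) of each of the 4 samples. For Nr4a2, Egr3, Fos, Ccl4 and Tnf the filled and open points do not overlap, and for Gzma, Gzmb and Ccl5 they do.

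Genes listed as feedback inhibitors of the response rose in part. Of 21 measured genes of this list, 10 were higher and 0 lower, with a median log2 fold change of 1.38. The 10 include Ier2 and Nfkbiz, and whether each listed gene restrains the response in these cells was not tested. Nfkbid, a nuclear regulator of NF-κB, was 323, 745, 743 and 489 CPM against 25.0 to 40.4 CPM (log2 fold change 4.12, SE 0.18, edgeR adjusted p = 7.99e-24). The rule did not use Nfkbid and Ccl4, markers proposed for these cells, and both lay above the matched cells in every sample. They were proposed with earlier results of these data known, so their rise is not independent support.

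Nfkbia, which holds NF-κB in the cytoplasm and whose κB site is shown above, was 538, 626, 641 and 554 CPM against 116 to 136 CPM (log2 fold change 2.22, SE 0.14, edgeR adjusted p = 2.26e-18). Zfp36l1 and Zfp36, whose proteins bind AU-rich elements and destabilise cytokine messages, rose by 1.96 (SE 0.13) and 1.91 (SE 0.18). Tagap, a GTPase-activating protein of T cells, rose by 3.38 (SE 0.27), and Dusp5, a nuclear phosphatase of ERK, by 1.95 (SE 0.39). Btg2, described after its values were seen because its promoter is shown, rose by 1.70 (SE 0.14, edgeR adjusted p = 4.84e-13). Tnfaip3, a ubiquitin-editing enzyme, passed at 1.43 (SE 0.38, edgeR adjusted p = 0.0317) but lost its call in 9 of 16 alternative analyses, among them the loss of any one sample (1.07 to 1.83). Rgs1, which dampens chemokine receptor signalling, did not pass (log2 fold change -0.33, SE 0.16, edgeR adjusted p = 0.541).

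Among 15 measured transcription factor genes of T cell activation, 6 were higher and 0 lower, with a median log2 fold change of 0.70. Myc, a driver of growth after stimulation, was 108, 209, 117 and 97.7 CPM against 11.8 to 30.9 CPM (log2 fold change 2.69, SE 0.29, edgeR adjusted p = 1.1e-09). Every sample of the set lay above every sample of the matched cells. The NF-κB subunit gene Rel rose by 1.59 (SE 0.22). Relb, Crem, Irf8 and Tbx21 passed at 1.42, 1.37, 1.27 and 1.22 and lost the call in 4, 6, 5 and 4 of 18 alternatives. Without cystine replicate 2 all 4 were lost, at 1.37, 1.20, 0.91 and 1.02. Without cystine replicate 1 Relb and Crem were lost (1.21 and 1.24), and without control replicate 2 Crem, Irf8 and Tbx21 (1.47, 1.25 and 1.10). Nfkb1, Nfkb2, Nfatc1, Bhlhe40, Tox, Ikzf2, Id2, Id3 and Klf6 did not pass.

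**Figure D2:**
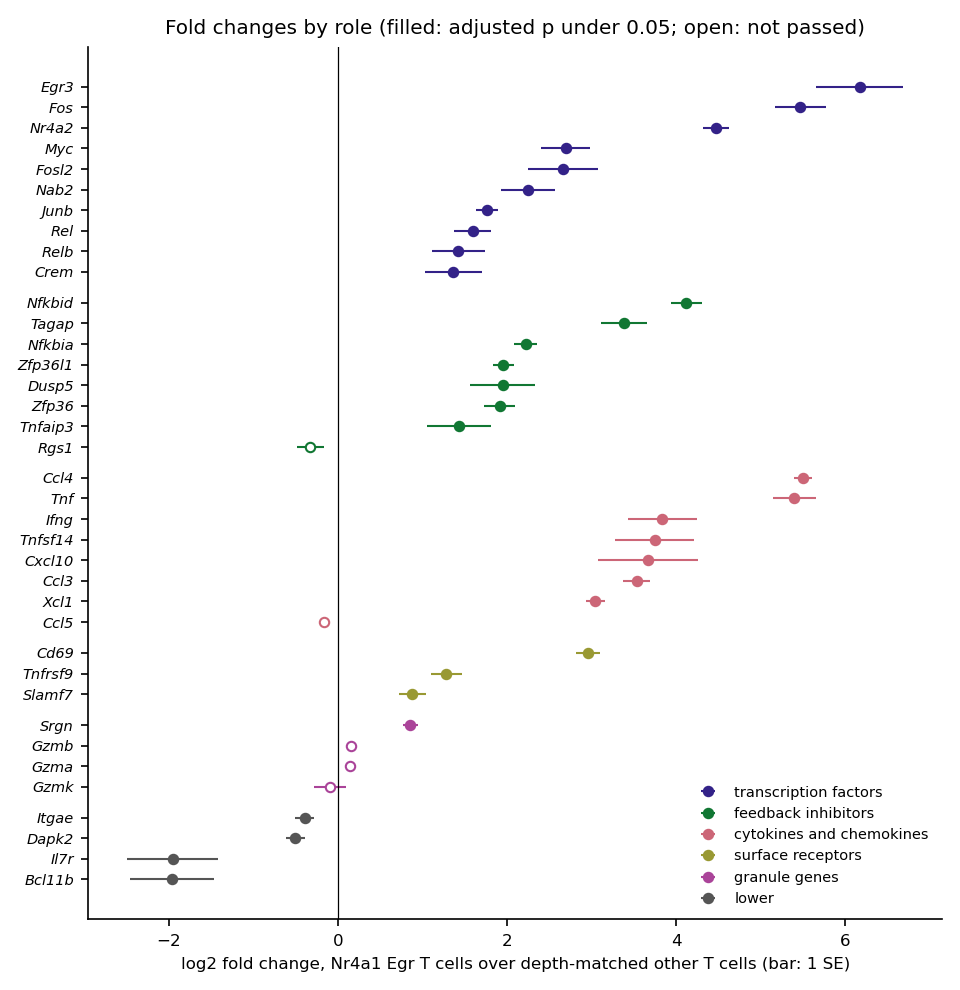
Log2 fold change of Nr4a1 Egr T cells over depth-matched other T cells (x axis, bars 1 SE) for genes grouped by role, with filled points for an adjusted p under 0.05. Egr3 (6.17), Ccl4 (5.50) and Fos (5.47) lie farthest to the right, and the open points of Ccl5, Gzma, Gzmb and Gzmk lie near 0.

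Secreted factors were led by chemokines. Of 25 listed cytokine and chemokine genes 13 were measured, of which 8 were higher and 0 lower, with a median log2 fold change of 3.04. Tnf, Ifng, Tnfsf14 and Cxcl10 were scarce in matched cells and entered the test through the set. The count and the median are thus partly fixed by the low-count filter. Ccl4, which encodes the chemokine MIP-1β, was 6176, 9625, 14804 and 10509.9 CPM against 183, 268, 194 and 243 CPM. The means were 10279 ± 3549 and 222 ± 40.1 CPM (SD, n = 4), a log2 fold change of 5.50 (SE 0.11, edgeR adjusted p = 3.91e-39). Ccl4 was detected in 78.2% of the set and 26.1% of matched T cells, and in 0.699% of B cells and 3.16% of plasmacytoid cells.

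Ccl3, which encodes MIP-1α, was 350, 812, 1019.98 and 641 CPM against 43.8 to 78.6 CPM (log2 fold change 3.53, SE 0.16, edgeR adjusted p = 4.35e-23). A Ccl3 UMI was seen with a Ccl4 UMI in 62 cells and without one in 2. Xcl1, a chemokine that attracts cross-presenting dendritic cells, was 1425, 2384, 2273 and 3116 CPM against 231 to 316 CPM (log2 fold change 3.04, SE 0.11, edgeR adjusted p = 5.3e-27). The groups did not overlap for either gene.

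Xcl1 messages were concentrated in few cells. An Xcl1 UMI was seen in 31.5% of the set and 20.5% of matched cells, and 1 cell held 32.7%, 38.1%, 44.9% and 35.5% of the Xcl1 UMIs of the set in the 4 samples. The corresponding share for Ccl4 was 11.4% to 19.0%. Xcl1 and Ccl4 occurred together in 34 cells and Xcl1 without Ccl4 in 18.

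Tnf, an inflammatory cytokine, was 421, 238, 248 and 347 CPM against 5.14 to 9.27 CPM (log2 fold change 5.40, SE 0.26, edgeR adjusted p = 1.17e-22). It was detected in 24.2% of the set, 1.69% of matched T cells and 5.04% of B cells. Ifng, the main cytokine of type 1 responses, was 251, 67.0, 72.9 and 86.9 CPM against 5.88 to 10.4 CPM (log2 fold change 3.84, SE 0.41, edgeR adjusted p = 5.81e-10). In control replicate 1, 1 cell held 80.9% of the Tnf UMIs and 1 cell 71.4% of the Ifng UMIs, and in cystine replicate 1, 1 cell held 80.0% of those of Ifng. Both genes stayed called without any one of the 4 samples.

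Tnfsf14, which encodes LIGHT, and Cxcl10, which encodes a CXCR3 ligand, rose by 3.74 (SE 0.47) and 3.66 (SE 0.59). Cxcl10 rested on few cells, with 1 cell holding 16 of its 33 UMIs in the set and 1 holding 50 of 64 in matched cells. It stayed called in all 16 alternatives that measured it, at 2.11 to 5.64, the lowest with doublets removed and the highest without cystine replicate 2. In cystine replicate 2 Cxcl10 was 32.6 CPM in the set and 28.9 CPM in matched cells. Of Ccl3, Ccl4, Xcl1, Tnf and Ifng, 14 cells had a UMI of none, 60 of 1, 45 of 2, 35 of 3, 9 of 4 and 2 of all 5. All 16 cells with Ifng also had Ccl4.

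**Figure D3:**
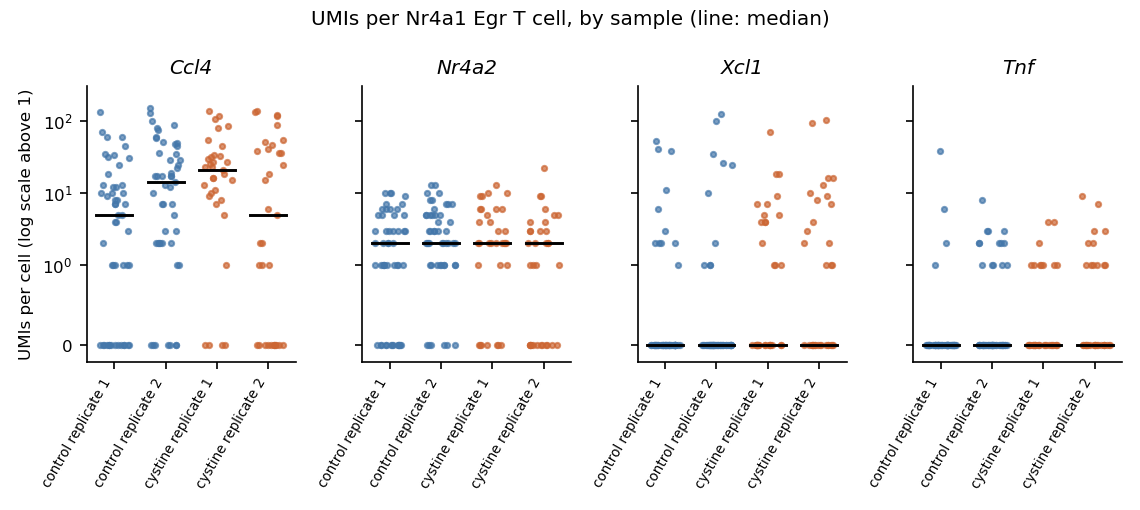
UMIs of Ccl4, Nr4a2, Xcl1 and Tnf in each Nr4a1 Egr T cell (y axis, log scale above 1) of the 4 samples, with the sample median as a line. The Ccl4 medians are 5, 14, 21 and 5 UMIs and those of Nr4a2 are 2, whereas those of Xcl1 and Tnf are 0.

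Other lymphokines were near the limit of detection. Il2 and Il17a had no UMI in the 165 cells, which allows a share of up to 1.82% of cells with a UMI, against 24 and 8 of 3250 matched cells. Il22, the cytokine named in the title of the series, had a UMI in 1 cell of the set and in 4 matched cells. Csf2 was 26.9, 22.3, 58.3 and 10.9 CPM against 1.41 to 4.41 CPM, higher in 4 of 4 samples, but was too low for the test, as was Il2ra at 7.45 to 58.3 CPM against 0.735 to 3.77 CPM.

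Ccl5 and the granzyme genes Gzma and Gzmb did not pass. Ccl5 was 32935, 44714, 33426 and 25341 CPM against 32328 to 45393 CPM (log2 fold change -0.16, SE 0.05, edgeR adjusted p = 0.148). Gzma and Gzmb had log2 fold changes of 0.14 (SE 0.05, edgeR adjusted p = 0.307) and 0.16 (SE 0.07, edgeR adjusted p = 0.393). Of 12 measured cytotoxic genes 1 was higher, Srgn, which encodes the granule proteoglycan, by 0.86 (SE 0.09, edgeR adjusted p = 1.5e-10). The median log2 fold change of the 12 was -0.02.

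Surface genes of activation were mixed, with 3 of 12 higher, 0 lower and a median log2 fold change of 0.43. Cd69, whose product retains lymphocytes in tissue, was 511, 745, 685 and 890.3 CPM against 82.9 to 104 CPM (log2 fold change 2.96, SE 0.14, edgeR adjusted p = 4.35e-23). It was seen in 61.8% of the set, 17.7% of matched cells and 14.6% of B cells. Tnfrsf9, which encodes the costimulatory receptor 4-1BB, rose by 1.28 (SE 0.18), and Slamf7 by 0.88 (SE 0.16). Slamf7 was no longer called without control replicate 2 (0.82) or cystine replicate 1 (0.71). Cd83, a surface glycoprotein of activated lymphocytes and dendritic cells, is outside that list. It was 44.8, 119, 72.9 and 32.6 CPM against 1.87 to 17.6 CPM (log2 fold change 3.29, SE 0.52, edgeR adjusted p = 1.55e-05), without overlap, and it was not called without control replicate 2 (2.24, edgeR adjusted p = 0.0935). A Cd83 UMI was seen in 6.67% of the set, 1.26% of matched cells and 36.7% of B cells, and 1 cell held 12 of the 29 UMIs of the set. With cells holding antigen-presenting messages left out, Cd83 was too low for the test. The part of B cell messages in its rise was not tested. Of 15 measured genes of proximal T cell receptor signalling, such as Lck, Zap70 and Lat, 0 passed, with a median of -0.12.

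Of 19 genes of growth and protein synthesis, 2 were higher and 0 lower, with a median log2 fold change of 0.27. Slc3a2, the heavy chain of several amino acid transporters that include the cystine exchanger, was 143, 134, 160 and 261 CPM against 54.5 to 70.4 CPM (log2 fold change 1.43, SE 0.24, edgeR adjusted p = 5.01e-05). Eif4a1, a translation initiation helicase, rose by 0.68 (SE 0.13, edgeR adjusted p = 0.000505), but was not called without control replicate 2 (0.56, edgeR adjusted p = 0.235) or cystine replicate 1 (0.60, edgeR adjusted p = 0.089). No gene passed among 5 of the ATF4 amino acid response (median -0.08), 12 of glutathione and thioredoxin metabolism (0.07), 7 of the interferon response (-0.06) or 6 of the cell cycle (-0.29).

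Heat shock genes, which tissue dissociation can also raise, had 4 of 11 higher and 0 lower, with a median log2 fold change of 0.29. Dnajb1 rose by 1.04 (SE 0.21), Hspa8 by 0.45 (SE 0.08), Hsp90aa1 by 0.54 (SE 0.13) and Dnaja1 by 0.46 (SE 0.12). The last 2 lost their calls in 9 and 12 of 18 alternatives, without either cystine sample among them (0.38 to 0.44), and Dnaja1 also without control replicate 2 (0.46). Dnajb1 was at 0.53 without cystine replicate 2 (edgeR adjusted p = 0.569) and Hspa8 at 0.38 without cystine replicate 1 (edgeR adjusted p = 0.0504). The summed level of the list was 10579 to 14505 CPM in the set and 9640 to 12193 CPM in matched cells, and the inducible Hspa1a was seen in 3 of 165 and 14 of 3250 cells. Neither their part nor that of tissue dissociation in the immediate-early messages, such as those of Nr4a1, Egr1, Fos and Junb, was tested.

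The genes that were lower were less stable across analyses. Bcl11b, a factor of T cell identity, was 17.9, 22.3, 14.6 and 0 CPM against 53.5 to 65.4 CPM (log2 fold change -1.96, SE 0.49, edgeR adjusted p = 0.02). Il7r, the interleukin 7 receptor and the 1 gene called among 4 of naive and circulating T cells, was 17.9, 14.9, 0 and 10.9 CPM against 39.7 to 58.9 CPM (log2 fold change -1.95, SE 0.54, edgeR adjusted p = 0.0445). The samples did not overlap for either gene, but the calls were lost in 8 of 18 and 11 of 17 alternatives. That of Bcl11b was lost without control replicate 2, cystine replicate 1 or cystine replicate 2 (-2.46 to -1.56), and that of Il7r without any one sample (-2.26 to -1.70).

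Itgae, the αE integrin that binds epithelial E-cadherin and the 1 gene called among 9 of natural intraepithelial cells, had a log2 fold change of -0.39 (SE 0.11, edgeR adjusted p = 0.0476) and lost its call in 12 of 18. Arhgap45 and Dapk2 fell by 0.64 (SE 0.15) and 0.50 (SE 0.12) on the log2 scale and lost the call in 5 and 6. Atp2a3, Srbd1, Osgin1, Tnfsf10 and Fam189b had values of -1.35, -1.18, -1.12, -0.99 and -0.71 and lost it in 9, 16, 13, 9 and 13. Itgae and these 7 genes were lost without control replicate 2, cystine replicate 1 or cystine replicate 2, at values from -1.38 to -0.30, and Srbd1 also without control replicate 1 (-1.36).

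Messages of other cell types were present in part of the set. Of the B cell list, 4 of 6 measured genes were higher, all of antigen presentation: H2-Aa, H2-Ab1, H2-Eb1 and Cd74. The list summed to 475, 5006, 1093 and 5668 CPM in the set and 581 to 1215 CPM in matched cells, high in control replicate 2 and cystine replicate 2. Without control replicate 2 the 4 genes lost their calls (1.22 to 1.996), and without cystine replicate 2 H2-Aa and Cd74 did (1.78 and 1.37). Ms4a1 and Ighd, which mark B cells, were at 0 in the 165 cells, as was Cd79a by the rule.

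Of 1421 UMIs of H2-Aa, H2-Ab1, H2-Eb1, Cd74 and Lyz2 in the set, 4 cells held 93.6%. None of the 4 had a Scrublet score high enough to be marked under the preset share. With cells of at least 5 such UMIs left out, 6 of them in the set, H2-Aa was at -0.11, Cd74 at 0.05, H2-Eb1 at 0.68 and H2-Ab1 at 1.43 (edgeR adjusted p = 0.178) on the log2 scale, and none of the 4 was called. In that analysis 94 genes were higher and 10 lower, 93 of these among the 119. Nr4a2, Egr3, Nfkbid, Ccl4, Tnf and Cd69 stayed called, and so did Irf8 (log2 fold change 1.38, edgeR adjusted p = 0.00194), a gene of the plasmacytoid list that T cells also express. However, Irf8 was not called with cells holding UMIs of other cell types left out. An Irf8 UMI was seen in 21.2% of the set, 10.5% of matched cells, 25.6% of B cells and 93.6% of plasmacytoid cells. The part of other cell types in its rise was not tested.

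The macrophage list had 1 of 4 measured genes called, Lyz2, at 654, 37.2, 0 and 1455 CPM (not called without cystine replicate 2, log2 0.94), and summed to 72.9 to 1705 CPM against 198 to 344 CPM, with C1qa, C1qb, C1qc, Ms4a7 and Cd14 at 0. The plasmacytoid list had 1 of 5 called (291 to 619 CPM against 374 to 454 CPM, Klk1 and Spib at 0). The mast cell list had 1 of 2 called, Mcpt1, lower in the set at 0, 0, 0 and 21.7 CPM against 2.20 to 354 CPM. The epithelial list had 1 of 5 called, Reg3b, lower at 26.9, 0, 0 and 21.7 CPM against 4.12 to 185 CPM. Of the UMIs of matched cells, 1 cell held 621 of 1851 for Mcpt1 and 327 of 555 for Reg3b. Both calls were lost by the DESeq2 Wald test and without the sample block, with adjusted p up to 0.165 and 0.79. No gene was called among 2 of plasma cells, 1 of conventional dendritic cells and 3 of natural killer and innate lymphoid cells.

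The set was spread over the kinds of T cell in the crypt. By their own messages, 66 of 20784 γδ cells (Trdc without Cd4 and Cd8b1), 74 of 25030 CD8αα cells without Trdc, 9 of 3913 CD8αβ cells and 1 of 255 CD4 cells belonged to it, and 15 of 7192 cells in no gate. These are 0.318%, 0.296%, 0.230% and 0.392% of the 4 gates as counted. With each cell thinned to 1000 UMIs, 16, 32, 5 and 1 cells met the rule, or 0.133%, 0.139%, 0.186% and 0.654%. The order of γδ and CD8αβ cells was then the opposite. With shallower cells left out, the thinned gates held 12047 γδ and 23101 CD8αα cells. The CD8αα gate needs a Cd8a UMI and 0 UMIs of Trdc, Cd8b1 and Cd4. A γδ or CD8αβ cell whose Trdc or Cd8b1 messages were missed can therefore fall in it. As counted, the difference between γδ and CD8αα cells was 0.00443 ± 0.178 percentage points (mean and SD over 4 samples). None of the 3 pairs among γδ, CD8αα and CD8αβ cells passed (adjusted p = 1, two-sided exact permutation test within samples, whose smallest raw p is 0.125).

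Within the set, γδ and CD8αα cells, with median depths of 2201 and 2075.5 UMIs, were compared with no test. The CD8αα gate may hold γδ cells whose Trdc was missed, so these are gates and not pure kinds of cell. Ccl4 was seen in 52 of 66 and 59 of 74 cells, Nr4a2 in 53 and 61, Nfkbid in 33 and 37, and Cd69 in 40 and 46. The cytokine messages lay farther apart. Tnf was seen in 27.3% and 16.2%, Ifng in 10.6% and 4.05%, Ccl3 in 42.4% and 33.8%, and Xcl1 in 25.8% and 33.8%. Of the αβ T cell genes 1 of 5 was called, Trac, which encodes a receptor chain, at 0.47 (SE 0.12, edgeR adjusted p = 0.0319), and it lost the call in 8 of 18 alternatives, among them without control replicate 2 (0.28), cystine replicate 1 (0.48) or cystine replicate 2 (0.46). Of 6 γδ genes 0 passed, with a median log2 fold change of -0.25. Trdc, Cd8a and Cd8b1 had log2 fold changes of -0.08, 0.17 and -0.63 and did not pass.

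**Figure D4:**
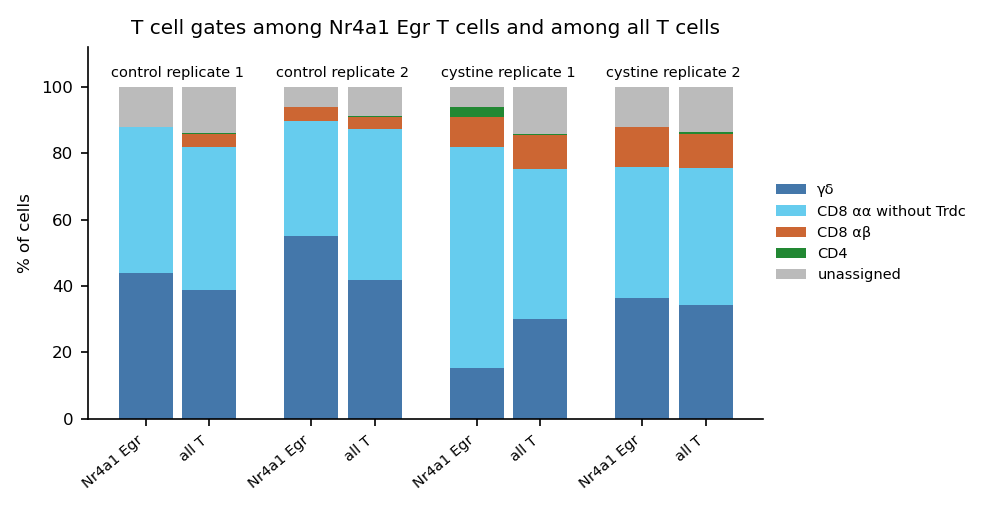
Share of each T cell gate (y axis, % of cells, stacked) among Nr4a1 Egr T cells and among all T cells of each sample, as counted and not at equal depth. γδ cells make up 44.0%, 55.1%, 15.2% and 36.4% of the set, and CD8αβ cells 0%, 4.08%, 9.09% and 12.1%.

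The diets were then compared, a question the title of the series poses for T cells. Nr4a1 Egr T cells were 0.324% and 0.341% of T cells in the control samples (exact Clopper-Pearson 95% intervals 0.241% to 0.427% and 0.253% to 0.451%). They were 0.243% and 0.238% in the cystine samples (0.168% to 0.342% and 0.164% to 0.335%). Intervals cover counting error only. Both control samples lay above both cystine samples, with a log2 ratio of means of -0.47 (two-sided exact permutation p = 0.333, the smallest that 2 samples against 2 allow).

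At equal depth the order did not hold. With each T cell thinned to 1000 UMIs and shallower cells left out, 17 of 11279 and 15 of 12678 control cells met the rule, and 19 of 10472 and 15 of 10538 cystine cells. The shares were 0.151% and 0.118% against 0.181% and 0.142%, a log2 ratio of 0.27 (exact permutation p = 0.667). The groups overlapped, and each share rested on 15 to 19 cells. With 2 samples against 2, the exact permutation test cannot give a p under 0.333 at any depth. The diets also overlapped with at least 3 Nr4a1 UMIs as the minimum (log2 ratio -0.21) and with cells holding UMIs of other cell types left out (-0.29). As a share of all kept barcodes they did not overlap (-0.74, exact permutation p = 0.333).

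**Figure D5:**
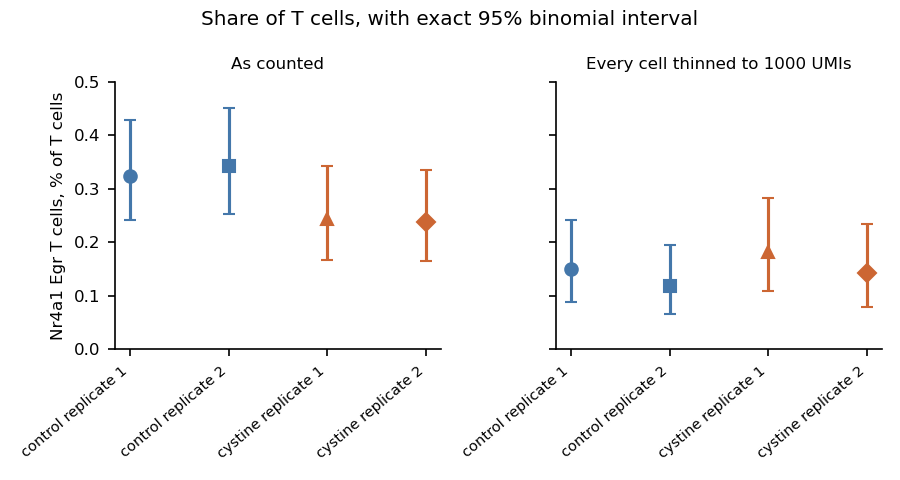
Nr4a1 Egr T cells as % of T cells (y axis) in each sample, as counted (left) and with each cell thinned to 1000 UMIs (right), with exact 95% binomial intervals. On the left both controls (0.324% and 0.341%) lie above both cystine samples (0.243% and 0.238%), and on the right the diets overlap.

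The makeup of the set by these gates, which depend on depth, varied between samples. γδ cells were 44.0% and 55.1% of it in the controls and 15.2% and 36.4% with cystine, against 38.6%, 41.7%, 30.1% and 34.3% of all T cells. CD8αβ cells were 0 of 50 in control replicate 1, which allows up to 6%, and 4.08%, 9.09% and 12.1% in the other samples, against 3.82%, 3.58%, 10.2% and 10.3% of all T cells. For both gates the diets did not overlap (exact permutation p = 0.333 each), and all T cells showed the same order.

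Within the set no gene passed the test of diet. Of 1682 genes tested, edgeR called 0 (0.0%) at an adjusted p under 0.05, with 84 at an unadjusted p under 0.05. The DESeq2 Wald test called 0, with 11. With 1 sample left out, genes of antigen-presenting messages had log2 fold changes of either sign. Lyz2 was at 4.24 without control replicate 1 and -8.13 without cystine replicate 2. Cd74 was at 4.12 without control replicate 2 and -2.01 without cystine replicate 2. Both cystine samples lay above both controls for 18.6% of the genes tested, and below them for 16.3%.

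The early genes did not pass. Nr4a2 was 1237 and 1296 CPM in the controls and 1676 and 977 CPM with cystine, and the cystine samples lay on either side of the controls. Egr3 was 80.7 and 81.9 against 160 and 206 CPM (log2 fold change 1.15, SE 0.36, edgeR adjusted p = 0.904), without overlap. Nfkbid was 323 and 745 against 743 and 489 CPM (log2 fold change 0.14, SE 0.39, edgeR adjusted p = 0.994), and Tnf 421 and 238 against 248 and 347 CPM (log2 fold change -0.14, SE 0.34, edgeR adjusted p = 0.994).

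Cd8b1, the β chain of CD8, was 0 and 14.9 CPM in the controls and 146 and 185 CPM with cystine (log2 fold change 4.14, SE 0.81, edgeR adjusted p = 0.626). In the other T cells, where 23 of 13330 genes were called (0.173%), 21 higher with cystine (0.158%) and 2 lower (0.015%), Cd8b1 was higher with cystine, at 90.2 and 67.9 against 195 and 212 CPM (log2 fold change 1.30, SE 0.14, edgeR adjusted p = 0.0105). Neither the set nor the other T cells overlapped between diets in this gene. Of the 21 genes, 10 are Defa genes, which encode the α-defensins of Paneth cells, and Lyz1, Ang4, Itln1 and Clps are further secretory genes of epithelium. Their part in the call of Cd8b1 was not tested. Within the set it was called with no filter on low counts, with 1 Nr4a1 UMI as the minimum, and without control replicate 2.

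The diet effect was last compared between the set and matched T cells. Of 8208 genes 2 differed (0.0244%), Ccl4 and the receptor segment gene Trbv16, the latter named after its values were seen. The DESeq2 Wald test called 0, with 77 at an unadjusted p under 0.05, against 377 for edgeR. Ccl4 was 6176 and 9625 against 14804 and 10509.9 CPM in the set and 183 and 268 against 194 and 243 CPM in matched cells, a difference of 0.77 log2 units (SE 0.15, edgeR adjusted p = 0.00486). In these sums both cystine samples lay above both controls in the set, and the diets overlapped in matched cells. Per cell the diets overlapped in the set as well. Ccl4 was detected in 72.0% and 85.7% of the set in the controls and in 87.9% and 66.7% with cystine. The medians were 5 and 14 against 21 and 5 UMIs.

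In the set alone the log2 fold change of Ccl4 with diet was 0.64 (SE 0.24, edgeR adjusted p = 0.904). The difference from matched cells lost its call with the first control (0.64), the other control (0.77) or the first cystine sample (0.37) left out, and kept it with the other cystine sample left out (1.08). Nor was it called with cells holding antigen-presenting messages left out (0.91, edgeR adjusted p = 0.772). Xcl1 did not pass (0.80 log2 units, SE 0.18, edgeR adjusted p = 0.0651), at 1425 and 2384 against 2273 and 3116 CPM in the set.

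Trbv16 was 17.9 and 14.9 against 219 and 152 CPM in the set and 106 and 102 against 160 and 117 CPM in matched cells, a difference of 3.14 log2 units (SE 0.62, edgeR adjusted p = 0.00666). The diets did not overlap in either. Summed cells of the set held 111554, 134231, 68629 and 92104 UMIs in that order, so the Trbv16 levels in the set stand for few UMIs. How many cells held them is not given here. The call was lost without control replicate 1 (3.15) or control replicate 2 (2.98), and with cells holding antigen-presenting messages left out (3.42, edgeR adjusted p = 0.0981).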

How the data were processed

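UMI counts per gene and barcode were used as deposited by the authors, 1 raw matrix for each of the 4 samples. Per the submitters' processing notes the tools were Cell Ranger 3.1.0 and Seurat 4.0.1 with the genome GRCm39, whereas the matrix headers name Cell Ranger 7.0.1. Which version made the matrices could not be settled, and it bears on which reads were counted. Cells with a Cd3 UMI and no Cd79a or Siglech UMI were called T cells. The members and gene lists were chosen with earlier results of these data known.

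Counts were summed per sample and tested with edgeR 4.0.16 (filterByExpr, TMM scaling, quasi-likelihood test, Benjamini-Hochberg over all genes tested, threshold 0.05), with DESeq2 1.42.0 as an alternative. The 9 genes of the rule were taken out of the fit of the set against matched cells. Printed CPM are unscaled, fold changes come from the scaled fits, and an SE is the log2 fold change divided by the square root of F. Comparison cells were up to 20 other T cells per member from the same sample and depth bin (0.25 log2 units). Named genes were up to 12 called rises and 12 falls with at least 50 CPM moving alike in all samples, up to 6 called per list, and 39 fixed genes. Scrublet (scanpy 1.11.5) marks were used only as an alternative. The scripts were tested on simulated data. Alternatives covered scaling, filters, thresholds of the rule, matching, thinning, doublets, cells with messages of other types, and each sample left out. Leaving out cells with antigen-presenting messages was added after seeing the data. UMI counts give intervals for counting error only.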

Additional observations from a re-analysis of the deposited data

Results flagged for a closer look

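The effect of diet on 2 genes differed between Nr4a1 Egr T cells and depth-matched T cells by a test of the difference itself. For Ccl4 the difference was 0.77 log2 units (edgeR adjusted p = 0.00486), and it ranged from 0.37 to 1.08 with 1 sample left out. For Trbv16 it was 3.14 log2 units (edgeR adjusted p = 0.00666), from 2.98 to 3.15, and it rested on few UMIs in the set. The DESeq2 Wald test gave an adjusted p of 0.9999 for both. With cells holding antigen-presenting messages left out, the edgeR adjusted p was 0.772 for Ccl4 and 0.0981 for Trbv16. The share of the set with a Ccl4 UMI overlapped between diets, at 72.0% and 85.7% in the controls and 87.9% and 66.7% with cystine.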

How the results depend on the processing

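Of 55 named and called genes, 21 stayed called in every alternative that measured them. With 1 sample left out an arm holds 1 sample, assumed to vary like the others. By diet in the set, Cd74 and Lyz2 then changed sign between these fits. The log2 ratio of shares was 0.27 after thinning, and -0.50 to -0.43 with 1 sample left out. Genes changed by diet in the set numbered 7 with no low count filter, 1 with at least 3 Nr4a1 UMIs, 3 with at least 1, 2 without cells holding UMIs of other cell types, and 5 to 22 with 1 sample left out. In other T cells they numbered 59 by DESeq2, 305 with no filter, and 6 to 350 with 1 sample left out. Genes that differed between the set and matched cells numbered 66 by DESeq2, 275 without depth matching, 57 thinned, 70 with at least 3 Nr4a1 UMIs, 187 with at least 1, 69 without cells holding UMIs of other types, and 58 to 126 with 1 sample left out (58 without control replicate 2, 73 and 71 with the first or the other cystine sample left out). Genes whose diet effect differed numbered 6 with DESeq2 size factors, 0 by the DESeq2 Wald test, 0 without antigen-presenting messages, and 3 to 17 with 1 sample left out.

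Some log2 fold changes reversed. H2-Aa was -0.65 without UMIs of other types and -0.11 without antigen-presenting messages, Cd74 -0.58 in the first of these, and Lyz2 -2.69 with at least 3 Nr4a1 UMIs. Gzmk was 0.12 with stricter cell filters, 0.026 with at least 3 Nr4a1 UMIs, 0.032 without other types, 0.035 without antigen-presenting messages, and -0.52 to 0.062 with 1 sample left out. Ly6a was -0.99 by DESeq2, -0.023 thinned, -0.16 with stricter filters, -0.31 and -0.56 with at least 3 and 1 Nr4a1 UMIs, and -1.12 to 0.62 with 1 sample left out. Trdc was 0.076 matched on gate, 0.043 with at least 1 Nr4a1 UMI, and -0.27 to 0.097 with 1 sample left out. Xcl1 by diet was -0.18 with at least 3 Nr4a1 UMIs. The cause was not tested.

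Replicate numbers are shared between diets but the labels do not pair the samples, and deviations of same-numbered samples correlated at -0.076. With the replicate number as a block, 0 genes changed with diet in the set and 309 in other T cells. With 165 cells, low messages and diet effects within the set are limited by depth.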
